A study of Mus musculus with 23 samples.

Results

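The inert control vectors of this barcoded lung tumour study are the constructs whose guides were directed at no kinase. They were chosen by the vector name in the deposited table, which lists only Neo and NT guides for 2 of the 26 named vectors. Neo1/NT is a dual vector, with the Neo1 guide behind an mU6 promoter and the NT guide behind hU6. Neo1/NT/Neo2 is a triple vector, with Neo1 behind bU6, NT behind mU6 and Neo2 behind hU6. The 21 mice described here held 66035 inert barcodes, of which 24305 had at least 500 estimated cells and are called tumours.

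Tumours were started with a pool of lentiviral Cre vectors and grew for 4 months in mice of a mixed BL6/129 background, and genomic DNA of the tumour-bearing lungs was sequenced. All groups carried R26LSL-Tomato, a reporter that Cre switches on. KT mice had neither Cas9 nor a floxed Lkb1 (5 labelled, 4 used). KT_Cas9 mice carried H11LSL-Cas9 (10 labelled, 10 used), and KTL_Cas9 mice carried H11LSL-Cas9 and Lkb1flox/flox (8 labelled, 7 used), so that in them Cre deletes Lkb1 in the same cells. The labels give neither the age of the mice nor the virus dose of a group.

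An inert vector delivers Cre without disabling a candidate gene, so its tumours serve as the baseline against which the other vectors of the same lung are read. In vector pools of this kind, Neo names guides against the neomycin resistance gene, which cut DNA where Cas9 is present without touching a cellular growth gene, and NT names non-targeting guides. Lkb1 (Stk11) is a kinase and tumour suppressor that activates the AMPK-related kinases, and its loss is known to speed the growth of lung tumours in mice. Each clone is recognised by a short code that names the vector and a random barcode that names the founding cell, so reads of a barcode follow the number of cells that descend from it.

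The codes that assigned a read to each inert vector are shown because every value below rests on them. Written 5′ to 3′, with capitals at the positions where the codes of these vectors differ, they were:
Neo1/NT: aatCCGGT
Neo1/NT/Neo2: aatTGCCG
The codes are 8 bases long and differed at 5 positions. The nearest code of any of the other 24 vectors differed from each of them at 4 positions.

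Each KT library had 936090 to 1505173 reads of named vectors, against 92713 to 4516887 in the KT_Cas9 libraries and 2181575 to 8547188 in those of KTL_Cas9 mice. The reads behind a clone of 500 cells numbered 3.13 to 7.81 (KT), 3.76 to 12.01 (KT_Cas9) and 6.16 to 51.7 (KTL_Cas9). Cells per clone are the deposited estimates, and how their factor of cells per read was set is not stated in the labels. Small clones rested on few reads, and 26.1% to 51.0% of inert tumours in KT mice had fewer than 10 reads. That share ran from 0% to 66.3% in KT_Cas9 mice and from 0% to 15.3% in KTL_Cas9 mice. KTL_Cas9 replicate 1 had 55852 reads of named vectors and 88 inert barcodes, the largest of them at 467 cells, and was left out for want of inert tumours. P-values measure the spread between mice.

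Absolute sizes were compared first across genotypes. In KT mice the median inert tumour held 896, 973, 1438 and 1019 cells in replicates 1, 2, 3 and 5. KT replicate 3 was the highest at every percentile from the 5th to the 99th. In the 10 KT_Cas9 mice the medians ran from 707 through 785 to 931 cells as the lowest, median and highest values. In the 7 KTL_Cas9 mice they ran from 1704 through 4106 to 17664 cells, and every KTL_Cas9 median lay above every median of the other genotypes. KT_Cas9 and KT medians overlapped, since KT_Cas9 replicate 10 (931 cells) exceeded KT replicate 1 (896 cells).

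The upper end of the distribution separated the genotypes more than its middle. The 95th percentile was 7633, 8582, 13645 and 8834 cells in the 4 KT mice. It ran from 1923 through 4277 to 7386 cells in KT_Cas9 mice, all below the lowest KT mouse, and from 87593 through 167749 to 236996 cells in KTL_Cas9 mice. The 99th percentile lay between 19893 and 31968 cells in KT mice, 3887 and 65992 in KT_Cas9 mice, and 189324 and 1448761 in KTL_Cas9 mice. KTL_Cas9 sizes thus lay above all others here too, whereas KT_Cas9 mice fell on both sides of the KT mice.

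The ratio of KTL_Cas9 to KT_Cas9 geometric means grew along the distribution up to the 95th percentile. It was 1.14-fold at the 5th percentile, 1.28-fold at the 10th, 1.82-fold at the 25th, 5.86-fold at the 50th and 19.0-fold at the 75th. It was 40.6-fold at the 90th, 41.3-fold at the 95th and 29.9-fold at the 99th percentile. Clones below the floor of 500 cells are not in these percentiles, so the ratios are of tumours past the floor. In every KT and KT_Cas9 mouse the 5th and 10th percentiles were the same value, between 502 and 639 cells. Ratios at these percentiles are thus bound by the floor and do not show how small clones compare. Against KT mice the same ratios were 1.25-fold at the 10th, 4.43-fold at the 50th, 17.0-fold at the 95th and 19.0-fold at the 99th percentile.

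In two-sided exact permutation tests of mouse labels, adjusted over 15 comparisons of inert tumours between genotypes, all 6 size differences passed at the 500-cell floor. KTL_Cas9 medians exceeded those of KT_Cas9 mice by 2.55 ± 0.49 SE on the log2 scale (exact permutation adjusted p = 0.000257) and those of KT mice by 2.15 ± 0.51 SE (adjusted p = 0.0182). The latter call was lost without KT replicate 1, 2 or 5 (exact permutation adjusted p = 0.05 each), with tumours of 10 or more reads only (1.40, adjusted p = 0.0909) and on reads scaled to 1000000 per mouse (2.13, adjusted p = 0.0909). At the 95th percentile the KTL_Cas9 values were 5.37 ± 0.28 SE above KT_Cas9 (exact permutation adjusted p = 0.000257) and 4.08 ± 0.25 SE above KT (adjusted p = 0.00649). KT_Cas9 values were below KT values at the median (-0.40 ± 0.16 SE, exact permutation adjusted p = 0.00649) and at the 95th percentile (-1.29 ± 0.28 SE, adjusted p = 0.00749).

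The difference between KT_Cas9 and KT changed with the floor and the mice it kept, the read minimum and the factor of cells per read. With a floor of 5000 cells the 95th percentile was 0.24 higher in KT_Cas9 mice (exact permutation adjusted p = 0.418, 6 and 4 mice), and with 1500 cells the difference was -0.0072 (adjusted p = 0.986, 8 and 4 mice). KT_Cas9 mice with too few inert tumours past a floor were left out. At 5000 cells these were replicates 2, 5, 6 and 8, with 0, 4, 11 and 6 such tumours. Their 95th percentiles at the 500-cell floor, 1923 to 3074 cells, were the lowest of the group. At 1500 cells replicates 2 and 5 were left out. Whether the floor or the loss of these mice moved the values was not tested. The median kept its call at 1500 cells (-0.33, exact permutation adjusted p = 0.00568) and lost it at 5000 (-0.09, adjusted p = 0.469). With 10 or more reads per tumour neither passed (-0.61 and -1.22, exact permutation adjusted p = 0.0994 and 0.0909). On scaled reads in place of cells the median difference was 0.33 (exact permutation adjusted p = 0.797) and the 95th percentile difference -0.55 (adjusted p = 0.515). Tumours of 1500 cells or more had medians of 2973 to 3515 cells (KT), 2184 to 2892 (8 KT_Cas9 mice) and 5194 to 41485 (KTL_Cas9). Tumours of 5000 cells or more had medians of 8705 to 9427 cells (KT), 7485 to 10528 (6 KT_Cas9 mice) and 22029 to 52709 (KTL_Cas9). KTL_Cas9 medians stayed above all the others at both higher floors. On scaled reads the KTL_Cas9 median was 1.80 above KT_Cas9 on the log2 scale, short of the threshold (exact permutation adjusted p = 0.114).

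Spread was measured as the SD of log2 size over the inert tumours of a mouse. It was 1.27, 1.32, 1.43 and 1.32 in the 4 KT mice, a range narrower than that of either Cas9 genotype. It ran from 0.70 through 1.10 to 1.30 in KT_Cas9 mice and from 2.39 through 2.73 to 3.21 in KTL_Cas9 mice. Inert tumours of a KTL_Cas9 mouse were thus the most unequal in size, with no overlap with the other genotypes. The 95th percentile was 8.52 to 9.49 times the median in KT mice, 2.72 to 7.94 times in KT_Cas9 mice and 13.4 to 106.6 times in KTL_Cas9 mice. The SD was 1.73 ± 0.14 SE higher in KTL_Cas9 than in KT_Cas9 mice (exact permutation adjusted p = 0.000257) and 1.43 ± 0.13 SE higher than in KT mice (adjusted p = 0.00649). KT_Cas9 and KT mice differed by -0.30 ± 0.08 SE (exact permutation adjusted p = 0.0204). That call was lost without any 1 of the 4 KT mice or without KT_Cas9 replicate 5 (highest exact permutation adjusted p = 0.0811). With a floor of 5000 cells, which left out KT_Cas9 replicates 2, 5, 6 and 8, the difference was 0.22 (exact permutation adjusted p = 0.0643).

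Size classes show what this spread was made of. In KTL_Cas9 mice 12.8% to 47.4% of inert tumours had 500 to 1500 cells, and 10.5% to 26.2% had 50000 cells or more. In KT mice 51.0% to 71.7% were in the smallest of these classes and 0.217% to 0.487% in the largest. In KT_Cas9 mice 69.2% to 91.5% were in the smallest class. Inert tumours of KTL_Cas9 mice were thus spread over all classes, and many held fewer than 1500 cells.

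KTL_Cas9 mice, whose inert tumours were the largest, had few of them. Inert tumours numbered 1496, 3023, 3693 and 3231 in the 4 KT mice. The lowest, median and highest numbers were 125, 631.5 and 4370 in KT_Cas9 mice and 61, 95 and 321 in KTL_Cas9 mice. KTL_Cas9 and KT numbers did not overlap, and the KT_Cas9 range overlapped both. KTL_Cas9 mice had 19.5-fold fewer inert tumours than KT mice (-4.28 ± 0.49 SE on the log2 scale, exact permutation adjusted p = 0.00649) and 4.90-fold fewer than KT_Cas9 mice (-2.29 ± 0.65 SE, adjusted p = 0.0118). The latter did not pass with tumours of 10 or more reads (-1.51, exact permutation adjusted p = 0.0909) or of 1500 or more cells (-1.27, adjusted p = 0.137). The 1500-cell comparison left out KT_Cas9 replicates 2 and 5, whose 17 and 11 such tumours were under the 20 needed. It thus dropped mice by the number compared. With all mice kept the difference was smaller, as given with the alternatives at the end. KT_Cas9 mice had 3.97-fold fewer than KT mice, which did not pass (-1.99 ± 0.60 SE, exact permutation adjusted p = 0.0524) but passed without KT_Cas9 replicate 10 (-2.29, adjusted p = 0.0191). Genotype and virus dose cannot be told apart in these numbers.

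The order of the genotypes turned over as the size floor rose. At 1500 cells or more a KT mouse had 424 to 1809 inert tumours, a KT_Cas9 mouse 11 to 1346 and a KTL_Cas9 mouse 43 to 201. At 5000 cells or more the ranges were 129 to 609, 0 to 328 and 36 to 134. At 50000 cells or more they were 5 to 18, 0 to 12 and 10 to 45. At 100000 cells or more they were 1 to 4 (KT), 0 to 7 (KT_Cas9) and 7 to 29 (KTL_Cas9). At that floor every KTL_Cas9 mouse had more such tumours than any KT mouse, and KT_Cas9 replicate 10 tied with the lowest KTL_Cas9 mouse. Over all named vectors KT mice had 10 to 67 tumours of this size and KTL_Cas9 mice 124 to 385. The lack of overlap between KT and KTL_Cas9 was thus not particular to inert vectors. Unlike for inert vectors, KT_Cas9 replicates 3 and 10 had more such tumours of all vectors than any KTL_Cas9 mouse. On log2 of inert number + 1, KTL_Cas9 exceeded KT mice at this floor by 2.25 (exact permutation adjusted p = 0.00568) and KT_Cas9 mice by 2.78 (adjusted p = 0.000771). At 50000 cells the differences were 1.30 (exact permutation adjusted p = 0.0372) and 3.01 (adjusted p = 0.00174). The floors of 50000 and 100000 cells were chosen after the numbers were seen.

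Total inert tumour cells per mouse overlapped across all genotypes. They came to 3302816, 7946355, 13689178 and 7909485 cells in the 4 KT mice. The lowest, median and highest totals were 119231, 1969553 and 12500222 in KT_Cas9 mice, and the KTL_Cas9 totals ran from 2653927 through 4440827 to 18942572 in KTL_Cas9 mice. The number of clones behind these totals differed too. The largest inert tumours that together held 50% of these cells numbered 121 to 333 in KT mice, 1 to 160 in KT_Cas9 mice and 3 to 20 in KTL_Cas9 mice.

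Largest clones are given with their barcodes, since single clones dominated some mice. A barcode has 30 bases, of which 20 are random and are written in capitals, and the lower-case bases are the fixed spacer, which was the same in all inert barcodes. The largest inert clones of KT replicate 2, KT_Cas9 replicates 3, 4, 6 and 10 and KTL_Cas9 replicates 4 and 6 were:
KT replicate 2, Neo1/NT/Neo2: gcCCCGAtaAGAACgcTACTCtaGACGCgc
KT_Cas9 replicate 3, Neo1/NT: gcCCCTCtaCCGCGgcCTCTCtaTATTTgc
KT_Cas9 replicate 4, Neo1/NT: gcGCTTGtaTATGGgcGGGTGtaTGCTGgc
KT_Cas9 replicate 6, Neo1/NT/Neo2: gcGTTGAtaTTCGGgcGCGGTtaGCGTGgc
KT_Cas9 replicate 10, Neo1/NT: gcTAATCtaATGCTgcCGATGtaCTTCTgc
KTL_Cas9 replicate 4, Neo1/NT: gcAAAAAtaTTAAGgcACGTAtaAAAAAgc
KTL_Cas9 replicate 6, Neo1/NT: gcCCCTTtaCCCCCgcCCCAGtaGCCGCgc
The first is the largest inert clone of any KT mouse, and the others are the largest clones of the mice in which that clone passed 1000000 cells.

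In KT mice the largest inert clone held 136015, 390350, 193012 and 217016 cells, and none reached 1000000. In KT_Cas9 mice it ran from 4716 through 183913 to 5025135 cells. Those mice fell far apart, since the largest clone held over 1000000 cells in 4 of the 10 and under 20000 cells in 3. In KTL_Cas9 mice it ran from 366552 through 774673 to 3630383 cells, above the highest KT clone in 6 of 7 mice and above 1000000 in 2. No test was made on these maxima, which rise with the number of clones sampled.

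The 4 very large KT_Cas9 clones stood out in their mice to different degrees. Inert tumours of 100000 cells or more numbered 1, 2, 4 and 7 in replicates 3, 4, 6 and 10. The clone of KT_Cas9 replicate 4 had 61310 reads and 5025135 cells, which was 64.3% of all inert tumour cells of that mouse and 31.2 times its second clone (161303 cells). The clone of replicate 6 had 17331 reads and 1401958 cells, or 54.0% of inert cells, where the median inert tumour held 809 cells. The clone of replicate 3 had 1388093 cells (28.7% of inert cells), and that of replicate 10 had 1221301 cells (9.77%) with a second clone of 866413 cells. In KTL_Cas9 mice the largest clone held 8.43% to 28.6% of inert cells, and in KT mice 1.41% to 4.91%. Over all KT_Cas9 mice that share ran from 3.70% through 8.39% to 64.3% as the lowest, median and highest values. The largest clone was 1.13 to 2.09 times the second in KTL_Cas9 and 1.04 to 2.26 times in KT mice. In KT_Cas9 mice it ran from 1.10 through 1.72 to 31.2 times the second.

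Compared with clones of the other vectors in the same lung, the largest inert clone ranked 3rd to 8th among all named-vector clones in KT mice. Its rank ran from 2 through 84.5 to 204 in KT_Cas9 mice and from 3 through 17 to 88 in KTL_Cas9 mice. Inert clones made up 4 to 9 of the 100 largest clones in KT mice, 0 to 5 (KT_Cas9) and 1 to 8 (KTL_Cas9) in the other genotypes. Of all tumours, inert ones were 7.20% to 7.61% (KT), 4.89% to 7.94% (KT_Cas9) and 5.27% to 8.42% (KTL_Cas9), and the KT counts lay around that share. The 100 largest clones are a greater part of all tumours in KTL_Cas9 mice (879 to 4522 tumours) than in KT mice (20490 to 51273). The largest inert clone carried Neo1/NT in 3 of 4 KT, 8 of 10 KT_Cas9 and 4 of 7 KTL_Cas9 mice, which is the vector with more tumours in every mouse.

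Barcodes found in more than 1 mouse touch these sizes. Of 24305 inert tumours, 654 (2.69%) had a vector and barcode that also occurred in another mouse, and 115 (0.473%) had fewer reads than the same barcode elsewhere. The share was 2.95% in KT, 2.16% in KT_Cas9 and 5.39% in KTL_Cas9 mice. Of the 42 largest clones (1 per vector and mouse), 11 had their barcode in another mouse as well, 7 of them in KT_Cas9 replicate 5, where each had 3 to 10 reads. In that mouse 7.84% of inert barcodes of any size were shared, against 1.72% to 3.98% in the other KT and KT_Cas9 mice and 1.42% to 8.72% in the KTL_Cas9 mice. The 5025135-cell clone of KT_Cas9 replicate 4 was found with 6538 cells in KT_Cas9 replicate 3. Of the 42 clones, 37 also had reads with no vector name in the same mouse, at most 1.67% of the clone's reads, and 0 shared their barcode with another named vector there. Without shared barcodes the 15 comparisons of inert tumours between genotypes kept direction and call.

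The share of inert tumours among all tumours of named vectors spanned 7.20% to 7.61% (KT), 4.89% to 7.94% (KT_Cas9) and 5.27% to 8.42% (KTL_Cas9). These ranges overlapped, and no difference passed (lowest exact permutation adjusted p = 0.271). Among tumours of 5000 cells or more the share was 6.83% to 7.20% in KT and 5.16% to 7.65% in KTL_Cas9 mice. In KT_Cas9 mice it was 2.13% to 6.95% in 9 mice, and in replicate 2 there were 0 inert among 188 such tumours, which allows a share of up to 1.60%. At this floor the share was 2.95 percentage points lower in KT_Cas9 than in KT mice and 2.27 points higher in KTL_Cas9 than in KT_Cas9 mice (exact permutation adjusted p = 0.0173 for each, a scale chosen after the shares were seen). Of all tumour cells of named vectors, inert clones held 6.86% to 7.38% (KT), 1.38% to 7.25% (KT_Cas9) and 2.86% to 6.60% (KTL_Cas9). The 7.25% was in KT_Cas9 replicate 6, which had 4 inert tumours of 100000 cells or more. The largest of them held 54.0% of the inert cells of that mouse.

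Both inert vectors went into the same lungs, so they can be compared within each mouse. Neo1/NT/Neo2 gave fewer tumours than Neo1/NT in all 21 mice. The labels do not give the share of each vector in the pool, so pool share and tumour formation cannot be told apart here. Their numbers were 383 and 1113 in KT replicate 1, 781 and 2242 in replicate 2, 910 and 2783 in replicate 3, and 737 and 2494 in replicate 5. The ratio of triple to dual tumours was 0.344, 0.348, 0.327 and 0.296 in these mice. It ran from 0.276 through 0.370 to 0.485 in KT_Cas9 mice and from 0.288 through 0.466 to 0.563 in KTL_Cas9 mice. As a share, the triple vector made up 25.8% of inert tumours in KT replicate 2 (95% exact Clopper-Pearson interval 24.3% to 27.4%, counting error only), 32.7% in KT_Cas9 replicate 9 (28.7% to 36.8%) and 36.0% in KTL_Cas9 replicate 5 (30.4% to 41.9%), the highest value of each genotype. The lowest were 22.8% in KT replicate 5 (21.4% to 24.3%), 21.6% in KT_Cas9 replicate 2 (14.7% to 29.8%) and 22.3% in KTL_Cas9 replicate 7 (14.4% to 32.1%).

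The triple vector was also the rarer one without a floor. Over inert barcodes of any size its ratio to the dual was 0.305 to 0.344 (KT), 0.320 to 0.435 (KT_Cas9) and 0.326 to 0.523 (KTL_Cas9). At the 500-cell floor, to which the following tests refer unless another is named, the log2 ratio was -1.61 ± 0.11 (SD, n = 4) in KT mice, -1.46 ± 0.25 (SD, n = 10) in KT_Cas9 and -1.19 ± 0.33 (SD, n = 7) in KTL_Cas9 mice. A two-sided exact test that flips signs of mice, adjusted over 12 tests of one inert vector against the other, called it in KT_Cas9 mice (adjusted p = 0.0234). The test is against equal numbers of both vectors, which an unequal pool would not give, so a call is no measure of tumour formation. At floors of 1500 and 5000 cells the KT_Cas9 value was -1.51 and -1.65 with exact adjusted p = 0.0938 and 0.188, over 8 and 6 mice. It did not pass in KTL_Cas9 (exact adjusted p = 0.0938) or KT mice (adjusted p = 0.25), where the smallest unadjusted p that 7 and 4 mice allow is 0.0156 and 0.125. The ratio was higher in KTL_Cas9 than in KT mice by 0.42 ± 0.13 SE and than in KT_Cas9 mice by 0.28 ± 0.15 SE, and neither difference passed (exact permutation adjusted p = 0.182 and 0.188). Without KTL_Cas9 replicate 7 they were 0.52 and 0.38 and both passed (exact permutation adjusted p = 0.0286 and 0.0305).

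The other 24 vectors place these numbers. Among the 14 dual vectors Neo1/NT ranked 4th to 6th by number of tumours in KT mice, and among the 12 triple vectors Neo1/NT/Neo2 ranked 11th or 12th. In KT mice the median triple vector had 0.492 to 0.526 times the tumours of the median dual vector, so the inert ratio of 0.296 to 0.348 lay below the ratio of the vector types. The ratio of the types was 0.455 to 0.642 for KT_Cas9 and between 0.545 and 0.717 for KTL_Cas9 mice.

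In size the inert vectors were close in mice with many tumours. The median sizes of Neo1/NT and Neo1/NT/Neo2 tumours were 832 and 960 cells in KT replicate 1, and were equal in the other 3 KT mice (973, 1438 and 1019 cells). Sizes are whole reads times a factor per mouse, so equal medians mean the same number of reads. The 90th percentiles of the dual and triple vector were 4135 and 5031 cells in KT replicate 1, 4512 and 5220 in replicate 2, 7829 and 8308 in replicate 3, and 4672 and 4875 in replicate 5. The triple vector was thus 1.04 to 1.22 times the dual in KT mice at this percentile, and 0.930 to 1.25 times at the 95th. In KT_Cas9 mice the triple vector was 0.867 to 1.13 times the dual at the median, 0.546 to 1.14 times at the 90th and 0.502 to 1.21 times at the 95th percentile. The lowest values at the 90th and 95th percentile belonged to KT_Cas9 replicate 2, with 27 triple tumours.

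In KTL_Cas9 mice the inert vectors lay further apart, and in both directions. The ratio of medians, triple over dual, was 0.149, 0.703 and 1.43 in replicates 2, 3 and 4. It was 1.11, 0.717, 1.33 and 0.214 in replicates 5, 6, 7 and 8. In replicate 2 the medians were 3885 cells over 21 triple tumours and 26135 cells over 40 dual tumours. In that mouse the 95th percentile went the other way, at 474433 cells for the triple and 175963 for the dual vector.

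Log-normal means are computed from the mean and variance of log size. In KTL_Cas9 mice they lay on both sides of the arithmetic mean. For Neo1/NT they were 86800 against 44490 cells in replicate 2 and 17301 against 60156 in replicate 4. By log-normal mean the triple vector exceeded the dual by a log2 ratio of 0.10 ± 0.07 (SD, n = 4, above 0 in 4 of 4 mice) in KT mice. The ratio was -0.03 ± 0.20 (SD, n = 10, above 0 in 3 of 10) in KT_Cas9 and 0.17 ± 0.76 (SD, n = 7, above 0 in 4 of 7) in KTL_Cas9 mice. None of these passed by exact sign-flip permutation (adjusted p = 0.25, 0.699 and 0.699), nor did any difference between genotypes (lowest exact permutation adjusted p = 0.408). With 4 KT mice the smallest unadjusted p of the sign-flip test is 0.125, so a KT difference could not have been called. The KTL_Cas9 ratios, which varied most, rested on 21 to 103 triple tumours per mouse, against 27 to 1242 in KT_Cas9 mice. Whether tumour number had a part in the variation was not tested.

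Across mice of a genotype, sizes of the inert vectors moved together in KT_Cas9 mice. Pearson's r between their log2 log-normal means was 0.88 (permutation p = 0.00144, adjusted p = 0.00576 over 4 relations) and Spearman's rho 0.81 (permutation p = 0.00691, adjusted p = 0.0138, n = 10). Without the 2 mice farthest from the median r was 0.85 (n = 8, exact permutation p = 0.0101). In KTL_Cas9 mice r was 0.74 (exact permutation p = 0.0782, adjusted p = 0.104) and rho 0.64 (exact permutation p = 0.139, adjusted p = 0.139, n = 7), and without 2 mice r was 0.49 (n = 5, exact permutation p = 0.517). Without KTL_Cas9 replicate 7 it was 0.86 (exact permutation adjusted p = 0.025). This and the adjusted values that follow were adjusted over the 2 Pearson relations only. Both vectors of a mouse share its library, depth and factor of cells per read. At a floor of 1500 cells r in KT_Cas9 mice was 0.36 (n = 8, exact permutation adjusted p = 0.239), and with arithmetic means it was 0.39 (n = 10, permutation adjusted p = 0.275).

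Read depth moved with inert number and size, and its part in the results was not tested. In KT_Cas9 mice the log2 reads of named vectors and log2 number of inert tumours had r = 0.94 and rho = 0.84 (permutation p = 0.00019 and 0.0034, adjusted p = 0.00228 and 0.0102 over 12 relations, n = 10). Without 2 mice r was 0.96. With the 95th percentile of inert size r was 0.84 and rho 0.79 (permutation adjusted p = 0.00909 and 0.0208, n = 10), and r was 0.82 without 2 mice. In KTL_Cas9 mice reads and the 95th percentile ran opposite ways, with r = -0.86 and rho = -0.86 (exact permutation adjusted p = 0.026 and 0.0476, n = 7), and r was -0.92 over the remaining 5 mice (exact permutation p = 0.0917). Reads and number had r = 0.66 there (rho 0.61, exact permutation adjusted p = 0.199 and 0.235) and r = 0.24 without 2 mice. Reads of named vectors include those of the tumours themselves, so these measures are not independent.

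Set among all 26 vectors, the inert vectors changed place with genotype. In KT mice, where no vector can cut, Neo1/NT/Neo2 ranked 9th and Neo1/NT 22nd of 26 by mean log2 log-normal size, at 0.03 ± 0.05 and -0.06 ± 0.05 (SD, n = 4) from the median vector of the mouse. In KT_Cas9 mice they ranked 26th and 25th, at -0.58 ± 0.40 and -0.55 ± 0.26 (SD, n = 10). In KTL_Cas9 mice they ranked 17th and 20th, at -0.17 ± 0.72 and -0.34 ± 0.24 (SD, n = 7). At the 95th percentile the log2 gap of both together to the median targeting vector was -1.17 ± 0.66 (SD, n = 10) in KT_Cas9 mice, where 16 to 24 of the 24 targeting vectors were larger. The same gap was -0.04 ± 0.07 (SD, n = 4) in KT and -0.25 ± 0.20 (SD, n = 7) in KTL_Cas9 mice. By median size the gap was exactly 0 in all 4 KT mice, -0.07 ± 0.10 (SD, n = 10) in KT_Cas9 and -0.17 ± 0.33 (SD, n = 7) in KTL_Cas9 mice. Ranked by median size, Neo1/NT/Neo2 was 24th of 26 in both KT_Cas9 and KTL_Cas9 mice, and Neo1/NT was 25th and 15th. These ranks were not tested.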

How the data were processed

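Barcoded lung tumours of 23 labelled mice were analysed, and 22 had lines in the deposited table. Mice were grouped by the genotype in the labels and numbered in the order of their records, so the numbers pair nothing. Whole-number read counts per mouse, vector and 30-base barcode, from 2 upwards, were deposited without normalisation. Per the file headers the authors also give estimated cells per barcode (a signal equal to count times a factor) and that factor, a ratio of cells per read. The factor equals 500000 over another deposited signal, taken here from this constant product to be the reads of a standard of 500000 cells, which no label states, and all absolute sizes rest on the deposited factor. KT replicate 4 was not analysed here. One allele that all groups share is not reported here. Read processing is not given in the sources used here, nor are guide sequences.

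Of 1019578 lines, 105870 repeats (all in KT replicate 2) were dropped. A mouse needed 20 inert tumours, each inert vector 5 for their comparison, and groups at least 4 mice, or 3 once one had been dropped. Mouse values were log2 median, log2 95th percentile, SD of log2 size, log2 number and log2 share of tumours. Group means of mice were compared by two-sided exact permutation and values within mice by exact sign-flip, with Benjamini-Hochberg adjustment over 15 and 12 tests at 0.05. Correlations of 10 mice used 100000 permutations. Size ratios of groups are of geometric means over mice. Reads are PCR products without molecular identifiers. The tests were tested on simulated data. Alternatives covered the floor, a minimum of 10 reads, shared barcodes, single inert vectors, reads scaled to 1000000 per mouse, other summaries, a studentized permutation and leaving out each mouse. The members and measures were chosen with earlier results of these data known. By the naming rule, the inert vectors and the largest clones per mouse and vector are named. Python 3.11.15, NumPy 2.4.6, SciPy 1.17.1 and pandas 2.3.3 were used.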

Additional observations from a re-analysis of the deposited data

Results flagged for a closer look

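Of 24 groups of mouse values examined for a mouse far from the others, 2 held one, where chance gives about 1 in 20. The inert share of tumours was lowest in KT_Cas9 replicate 2, at -4.35 on the log2 scale (4.89% of tumours), with 125 inert tumours and the fewest reads of its group. The log2 size ratio of Neo1/NT/Neo2 to Neo1/NT was highest in KT_Cas9 replicate 6, at 0.42, the mouse whose triple vector tumours include the 1401958-cell clone.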

How the results depend on the processing

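Over 29 results, 167 of 221 alternative values kept direction and call, as did 592 of 609 with a mouse left out. Values are log2 differences between groups unless stated, and the causes were not tested. Floors of 1500 and 5000 cells also left out KT_Cas9 mice with few inert tumours, as given above. With a floor of 1500 cells, KT_Cas9 minus KT was -0.0072 for the 95th percentile and 0.025 for spread, and KTL_Cas9 minus KT_Cas9 was -1.27 for number and 0.018 for share. Triple minus dual there was -0.034 for number and 0.22 for size between KT_Cas9 and KT, -1.51 for number within KT_Cas9, and for size -0.013 within KT and 0.21 within KT_Cas9, with r = 0.36 across KT_Cas9 mice. At 5000 cells, KT_Cas9 minus KT was -0.090 (median), 0.24 (95th percentile), 0.22 (spread) and -0.56 (share, called), and KTL_Cas9 minus KT_Cas9 was -0.25 (number) and 0.40 (share, called). Triple minus dual number was -0.21 between KT_Cas9 and KT and -1.65 within KT_Cas9, size within KT was -0.052, and r across KT_Cas9 mice was 0.54. With 10 or more reads, calls were lost for KT_Cas9 minus KT in median (-0.61), 95th percentile (-1.22) and spread (-0.19), for the KTL_Cas9 minus KT median (1.40) and for KTL_Cas9 minus KT_Cas9 number (-1.51). Without shared barcodes the triple minus dual size was -0.11 for KTL_Cas9 minus KT and -0.014 within KTL_Cas9. KT_Cas9 minus KT number was called by a studentized permutation (-1.99) and with Neo1/NT alone (-2.03), as was the KTL_Cas9 minus KT share with Neo1/NT alone (-0.29). With Neo1/NT/Neo2 alone, KT_Cas9 minus KT spread was -0.33 and not called, and the shares turned to 0.068 (KT_Cas9 minus KT), 0.13 (KTL_Cas9 minus KT) and 0.063 (KTL_Cas9 minus KT_Cas9). On scaled reads the medians differed by 0.33, 2.13 and 1.80 in that order and the KT_Cas9 minus KT 95th percentile by -0.55, none called. With medians in place of log-normal means, triple minus dual size was -0.75 (KTL_Cas9 minus KT), -0.70 (KTL_Cas9 minus KT_Cas9), 0.0022 (within KT_Cas9) and -0.70 (within KTL_Cas9), and with arithmetic means r was 0.39 in KT_Cas9.

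For alternatives chosen after the data were seen, with all mice kept and 1 added to each number, KT_Cas9 minus KT number was -2.86 at 1500 and -3.52 at 5000 cells, both called. KTL_Cas9 minus KT_Cas9 number was -0.48 at 1500, 1.40 at 5000, 3.01 at 50000 and 2.78 at 100000 cells, and KTL_Cas9 minus KT number was 1.30 and 2.25 at the last floors. In percentage points the KTL_Cas9 minus KT_Cas9 share was 0.82 at 1500 and 2.27 at 5000 cells, and the KT_Cas9 minus KT share -2.95 at 5000.

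With each mouse left out in turn, the KTL_Cas9 minus KT median ran from 1.83 to 2.39 (adjusted p up to 0.05, without KT replicate 1, 2 or 5). KT_Cas9 minus KT spread ran from -0.33 to -0.27, number from -2.29 to -1.72 and share from -0.050 to 0.027 (above 0 without KT_Cas9 replicate 2). Triple minus dual number ran from 0.36 to 0.52 for KTL_Cas9 minus KT and from 0.22 to 0.38 for KTL_Cas9 minus KT_Cas9. Triple minus dual size ran from -0.14 to 0.22 (KTL_Cas9 minus KT, below 0 without KTL_Cas9 replicate 2 or 7), -0.0085 to 0.35 (KTL_Cas9 minus KT_Cas9) and -0.042 to 0.31 (within KTL_Cas9), the last 2 below 0 without KTL_Cas9 replicate 7, and r across KTL_Cas9 mice from 0.53 to 0.86. No paired analysis was possible because the labels give no numbers that pair mice across genotypes, and only the inert vectors were compared within mice.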
